A study of Mus musculus with 21 samples.

Results

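Control choroid plexus was set against control hypothalamus in 10 of the 21 libraries of the series, 5 from each tissue. The libraries were taken by their tissue and treatment labels. All 10 libraries came from wild-type C57BL/6J mice labelled as untreated controls, and the labels used here give neither age nor sex. Ddx3y, a gene of the Y chromosome, was read in every library, at 147 to 173 reads per M reads of the library (RPM) in choroid plexus and 99.2 to 106 in hypothalamus. The remaining libraries, from mice with Ins2 overexpressed in the choroid plexus, were not used. Column names of the hypothalamus controls begin with GFP and those of the choroid plexus controls do not, and the labels mention no vector for either, so it is not known from them whether any control mouse received a GFP vector. The labels leave unsaid whether libraries of a group came from separate animals, and p-values below measure the spread between libraries, which may be technical.

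The choroid plexus is a sheet of secretory epithelium on a fenestrated capillary bed that hangs in the brain ventricles. It makes cerebrospinal fluid by pumping sodium, chloride and bicarbonate, seals the blood from the fluid with tight junctions, and releases carrier proteins and growth factors into it. The hypothalamus is neural tissue at the floor of the third ventricle, with neurons that make peptide hormones for the pituitary and for feeding, fluid balance and sleep, among astrocytes, oligodendrocytes, tanycytes and vessels. Choroid plexus was deposited in one table and hypothalamus in another, each scaled on its own, and tissue cannot be told apart from table, dissection and library handling. In bulk RNA, fewer cells of a type and less RNA per cell cannot be told apart either.

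Reads recovered from the deposited values summed to between 27.6 and 34.9 M (1 M is 1000000 reads) per choroid plexus library and between 27.4 and 47.2 M per hypothalamus library, over 25239 genes named in both tables. Levels are given in RPM, the reads of a gene per M reads of the library's own total. A tissue difference is the log2 of the level plus 0.5 RPM in choroid plexus minus the same in hypothalamus, fitted with limma over the 15671 genes with a mean of at least 0.5 RPM. Folds are on that scale, with 95% intervals, and understate the change of genes near 0. A gene was called higher in a tissue at a Benjamini-Hochberg adjusted p under 0.05 over all genes tested.

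Choroid plexus RNA was dominated by few genes, and hypothalamus RNA was not. In the choroid plexus libraries, 500.4 ± 19.8 genes (SD, n = 5) held 50% of the reads, against 1298 ± 1.52 (n = 5) in hypothalamus. The 10 highest genes held 21.7 ± 0.349% of choroid plexus reads and 3.11 ± 0.0349% of hypothalamus reads. The libraries of the tissues did not overlap in either measure, and the exact two-sided permutation p was 0.00794 for each, the smallest that 252 splits can give. Without Ttr and Rn45s the gap narrowed, with 817.8 ± 20.1 genes holding 50% of choroid plexus reads against 1303 ± 1.52, and with 10.2 ± 0.241% against 3.11 ± 0.035% of reads in the 10 highest genes.

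**Figure D1:**
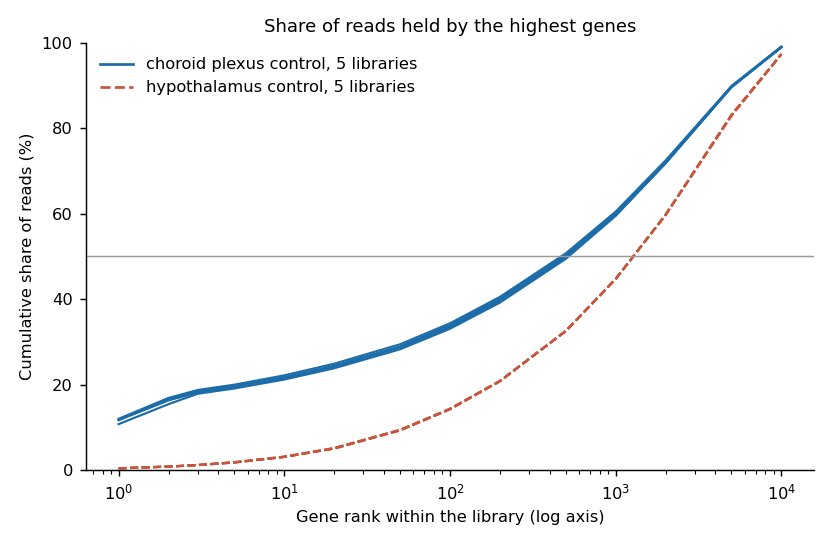
Cumulative share of reads (%) against gene rank within each library (log axis) for the 5 choroid plexus controls (solid lines) and 5 hypothalamus controls (dashed lines), with a grey line at 50%. The 5 choroid plexus curves reach 50% between rank 473 and rank 523, and the 5 hypothalamus curves between rank 1296 and rank 1300.

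Transthyretin, Ttr, the carrier of thyroid hormone and retinol-binding protein in cerebrospinal fluid, held the largest share of choroid plexus reads. Its level was 116968, 117472, 120059, 117668 and 107573 RPM in choroid plexus controls 1 to 5, or 11.6% of reads on average. In hypothalamus controls 1, 2, 3, 4 and 6 it was 1.02, 0.324, 0.697, 0.181 and 0 RPM. Every choroid plexus library was thus far above every hypothalamus library, in which 48 Ttr reads were the most seen in any library. Those hypothalamus levels came to at most 0.000876% of the choroid plexus mean.

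Enpp2, which encodes the secreted lysophospholipase autotaxin, came next at 4.76% of choroid plexus reads, and its 47644 ± 1834 RPM stood 242-fold above the 197 ± 15.4 in hypothalamus (interval 222 to 263). Rn45s, the 45S ribosomal RNA precursor, took 1.94% of choroid plexus reads and stood 10.02-fold above hypothalamus. It is a multicopy transcript without a coding region, and how much of it remained after poly(A) selection was not tested. The rest of the 10 highest were Psap (prosaposin, a precursor of lysosomal activators), Igf2 (insulin-like growth factor 2), Trpm3 (a cation channel), Kl (klotho, a co-receptor for FGF23), Apoe and Clu (lipid carriers) and Slc22a17 (a receptor for lipocalin 2). Their folds over hypothalamus ran from 1.99 for Apoe to 484 for Kl. Kl was read at 4424 to 4875 RPM in choroid plexus and 8.15 to 11.1 in hypothalamus. Igf2 was read at 4519 to 5077 and 19.3 to 27.3. All 10 were called higher in choroid plexus, and their calls were kept under each of the 4 scalings described below.

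The 10 highest genes of hypothalamus each held under 1% of its reads. Among them were the long noncoding RNAs Meg3 and Snhg11, the elongation factor Eef1a1, the G protein locus Gnas, myelin basic protein Mbp, the matrix protein Sparcl1, the fatty acid desaturase Scd2 and the prohormone processing enzyme Cpe. Meg3 led with 4230 ± 165 RPM in hypothalamus against 10.6 ± 2.67 in choroid plexus, a 390-fold difference (interval 325 to 469). Snhg11 stood at 3999 ± 205 against 6.45 ± 0.574, or 576-fold. Cpe stood at 2223 ± 84 against 70.1 ± 13.4, or 31.9-fold. For Eef1a1, Gnas and Scd2 the call depended on scaling: the log2 differences of -0.21, -0.55 and -0.54 became 0.25 (called higher in choroid plexus), -0.09 and -0.08 (neither called) with TMM factors.

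Across the genome, 13803 of 15671 genes tested (88.1%) differed between the tissues. Of these, 4453 (28.4% of genes tested) were higher in choroid plexus and 9350 (59.7%) in hypothalamus. At 4-fold or more the counts were 1156 (7.38%) and 3110 (19.8%). The lists below are read against these shares. Scaling moved this balance. The median log2 difference of all genes tested was -0.56 with library totals, and it was raised by 0.21 when Ttr and Rn45s were left out of the totals, by 0.46 with TMM factors and by 0.47 with DESeq2 size factors. The share of calls that fell on the choroid plexus side rose from 32.3% to 38.2%, 45.9% and 46.2% in that order. All 4453 genes higher in choroid plexus kept that call under the 4 scalings (28.4% of genes tested), and 7277 genes (46.4%) kept the call higher in hypothalamus. Groups did not overlap at all, with every library of one tissue above every library of the other, for 3937 genes (25.1%) in favour of choroid plexus and 8567 (54.7%) in favour of hypothalamus.

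**Figure D2:**
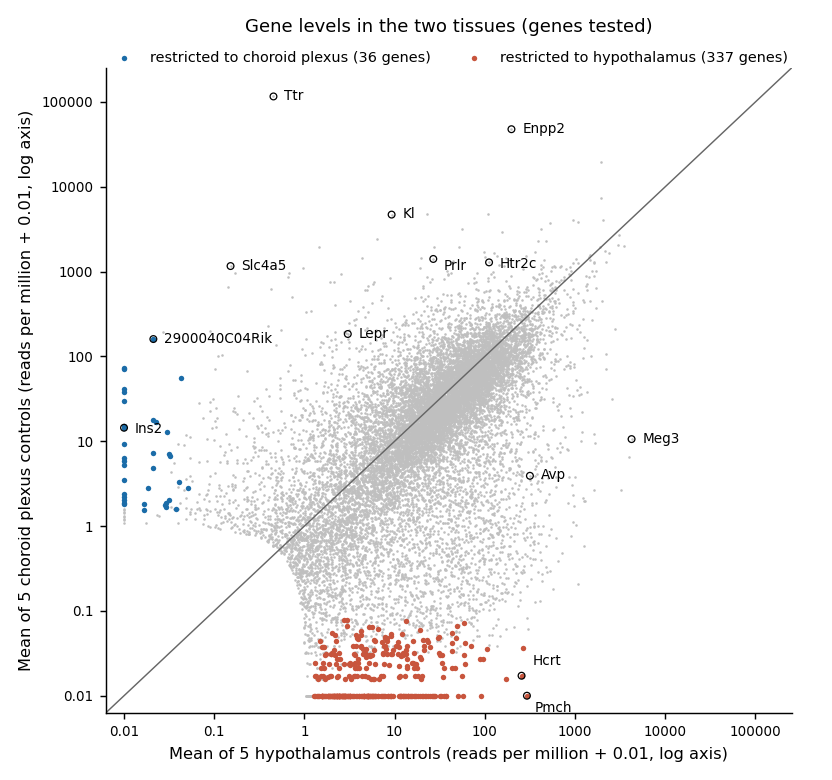
Mean level of each gene tested in the 5 choroid plexus controls (vertical) and the 5 hypothalamus controls (horizontal), in RPM plus 0.01 on log axes, with the line of equality. Coloured points are the 36 genes restricted to choroid plexus and the 337 restricted to hypothalamus by the rule given in the text, and circles mark named genes such as Ttr at the top and Meg3 at the right.

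Some abundant genes stood at nearly the same share of reads in both tissues. Among the 2234 genes with a mean of at least 100 RPM, 225 had a 95% interval within 1.25-fold either way, and among all genes tested 996 did. Among the 8 nearest to equality were Ddx17 (an RNA helicase), Sumo3 (a ubiquitin-like modifier), Isca1 (iron-sulfur cluster assembly), Fndc3a, Eif3b (translation initiation), Ednrb (an endothelin receptor) and Hk1 (hexokinase 1). Ddx17 was read at 480 ± 28.6 RPM in choroid plexus and 479 ± 11.7 in hypothalamus, a fold of 1.001 (interval 0.934 to 1.07). Hk1 stood at 395 ± 14.2 and 397 ± 21.8, and Ednrb at 110 ± 8.87 and 109 ± 4.28. Equality here holds for shares of all reads only: with TMM factors the genes named had log2 differences of 0.45 to 0.46, the shift of the scaling itself, and each was called higher in choroid plexus.

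Markers of the labelled tissues were present and nearly exclusive. All 12 choroid plexus epithelium markers were called higher in choroid plexus, with a median log2 difference of 8.62 against -0.56 for all genes tested. Summed, they came to 169280 to 183508 RPM in the choroid plexus libraries and 252 to 293 in hypothalamus. Enpp2 alone made up 197 of the mean hypothalamus sum of 271. All 12 neuron markers were called higher in hypothalamus, with a median of -7.61 and sums of 6861 to 7326 against 55.9 to 75.5 RPM. Snap25, a synaptic vesicle fusion protein, was read at 1275 ± 70.3 in hypothalamus and 1.95 ± 0.768 in choroid plexus. Gap43, a growth cone protein, was 906-fold higher in hypothalamus. All 12 oligodendrocyte markers and all 12 markers of ependyma and tanycytes were higher in hypothalamus, and 9 of 12 astrocyte markers were. The other 3 astrocyte markers, Aldh1l1, Sox9 and Slc7a10, were higher in choroid plexus. Slc7a10, a serine and glycine exchanger, stood at 399 against 58.8 RPM.

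Of 12 endothelial markers, 9 were higher in hypothalamus (6 under all 4 scalings) and 3 in choroid plexus, namely Kdr (the VEGF receptor), Plvap (the diaphragm protein of fenestrated capillaries) and Slco1c1. That split was not far from all genes tested, of which 59.7% were higher in hypothalamus (46.4% under all 4 scalings) and 28.4% in choroid plexus. The median log2 difference was -0.75 against -0.56 for all genes tested. Plvap was read at 25.5 RPM in choroid plexus and 17.6 in hypothalamus. Of 8 mural cell markers, 7 were higher in hypothalamus (5 under all 4 scalings) and 1, Vtn (vitronectin), in choroid plexus at 84.8 against 59.7. The barrier claudin Cldn5 was 9.2-fold higher in hypothalamus, at 31.7 ± 2.43 against 3.15 ± 1.16. Slco1c1, which the plexus epithelium also expresses, made up 929 of the 1000 to 1163 RPM summed over the endothelial markers in choroid plexus. For microglia and macrophages, 8 of 10 markers tested were higher in hypothalamus, with sums of 228 to 252 against 24.7 to 64.6 RPM. Of the border macrophage markers, Mrc1 was higher in choroid plexus at 3.13 against 1.24 and Cd163, at 0.601 against 1.05, was not called. Cd163 was called higher in hypothalamus without choroid plexus control 1 (log2 difference -0.60), choroid plexus control 3 (-0.57), hypothalamus control 3 (-0.61) or hypothalamus control 4 (-0.54), against -0.48 with all libraries. Of 10 fibroblast markers, 6 were higher in choroid plexus and 1, Slc6a13, in hypothalamus, at a log2 difference of -0.56 that was not called under the other 3 scalings, with edgeR (-0.56), over the 8 libraries numbered 1 to 4 (-0.43), or without choroid plexus control 3 (-0.47), choroid plexus control 5 (-0.40) or hypothalamus control 2 (-0.49). Ogn, a small proteoglycan, had the largest fold of them, 16.5, at 45.5 against 2.29.

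Choroid plexus control 2 stood apart from the other 4 choroid plexus libraries in genes of neural tissue. Mbp was read at 838 RPM there and at 54.4, 59.2, 61.3 and 51.4 in controls 1, 3, 4 and 5. Its oligodendrocyte marker sum was 1841 against 97.8 to 115 in the other 4, or 25.4% of the hypothalamus mean against at most 1.59%. Gfap, an astrocyte filament, was at 150 against 3.002 to 15.3. Avp, the vasopressin gene, was at 19.2 against 0 to 0.144. Neuron markers moved less, at 75.5 RPM in control 2 against 55.9 to 64.9. Leaving this library out kept the direction and the call of the genes named here except Slc22a6, described below, and moved the log2 difference of Mbp from -4.82 to -5.60, of Gfap from -4.68 to -5.60, of Avp from -8.06 to -9.09, of Sparcl1 from -7.00 to -7.59 and of Cldn11 from -4.92 to -5.58. Near-equal genes are left out of that statement, since their sign turns within their error.

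**Figure D3:**
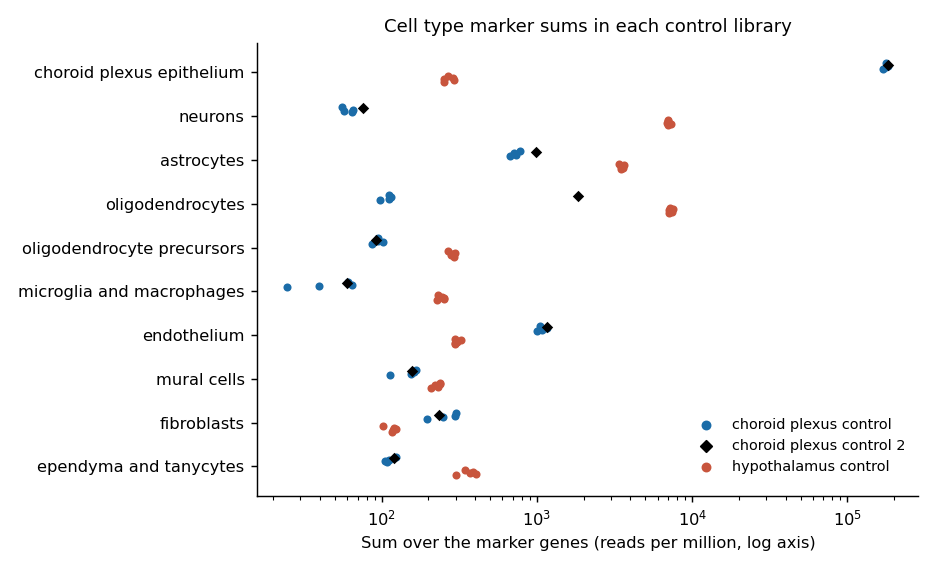
Sum of each marker list in RPM (log axis) in every control library, with choroid plexus control 2 as a black diamond. The choroid plexus epithelium sums lie above 169280 in all 5 choroid plexus libraries and below 293 in all 5 hypothalamus libraries, and the oligodendrocyte sum of choroid plexus control 2 lies at 1841 between the tissues.

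Some markers of other organs and brain regions were in places the labels do not predict. Ppp1r1b, which encodes the dopamine-regulated phosphatase inhibitor DARPP-32 and served here as a striatal marker, was 29.7-fold higher in choroid plexus, at 749 ± 53.6 against 24.9 ± 4.11 RPM. The other 6 striatal markers were higher in hypothalamus. Of the 7 thalamus markers, Zic1, Rora, Prkcd and Lef1 were higher in choroid plexus and the other 3 in hypothalamus (2 of them under all 4 scalings), and no difference reached 4-fold. Pituitary hormones were rare: Prl and Gh averaged 0.436 and 0.178 RPM in hypothalamus. Cga, the shared glycoprotein hormone subunit, was read at 0.191, 7.94, 6.77, 8.39 and 13.3 in hypothalamus controls 1, 2, 3, 4 and 6 and at 0 in every choroid plexus library. Control 1 was far below the other 4, and without it the log2 difference of Cga went from -3.47 to -4.22. Lhb was 14.6-fold higher in choroid plexus, but 20.4% of its exon bases overlap the antisense gene Ruvbl2 and the strand setting of the counting is not given in the sources used here. The alpha globin genes Hba-a1 and Hba-a2 and the beta globin genes Hbb-bs and Hbb-bt, near-identical within each pair, are listed at 0 in all 10 libraries. The erythroid gene Alas2 was read at 2.48 ± 0.743 and 3.43 ± 1.08 and was not called, though without choroid plexus control 3 its log2 difference of -0.51 was.

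A gene was taken as restricted to a tissue when every library of that tissue had at least 1 RPM and no library of the other had more than 3 reads. By this rule 36 genes (0.143% of the 25239 in the tables) were restricted to choroid plexus and 337 (1.34%) to hypothalamus. The restricted genes held 0.0631% of choroid plexus and 0.466% of hypothalamus reads. At the edges of the rule, Tspan10 was inside with 1.04 RPM in its lowest choroid plexus library and D630029K05Rik outside with 0.946. Prr32 was outside with 4 reads in 1 hypothalamus library, although its lowest choroid plexus level was 173. On the other side, Actrt3 was inside at 1.003 and L3mbtl4 outside at 0.987, and Slc17a6 was outside with 4 reads in 1 choroid plexus library. The number restricted to hypothalamus was 492 when choroid plexus control 2 was left out.

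Of the 36 genes restricted to choroid plexus, 27 encode proteins and 17 had no read in any hypothalamus library. The highest by reads was the noncoding 2900040C04Rik, at 155, 138, 150, 175 and 183 RPM in choroid plexus controls 1 to 5 and 2 reads in all hypothalamus libraries together. Sult1c2, a cytosolic sulfotransferase, followed at 72.4 ± 12.5, at least 660-fold above the 3 reads per library taken as the floor. Tmprss11a, a transmembrane serine protease, stood at 71.3 ± 7.65, at least 650-fold above the floor. Cox8b, a cytochrome oxidase subunit known from heart and muscle, stood at 55.1 ± 2.81 against 0.0325 ± 0.0348. Dmrt3, a doublesex-related transcription factor, stood at 40.7 ± 5.11, at least 372-fold above the floor, and Tlx2, a homeobox gene, at 5.2 ± 0.863, at least 47.4-fold. Bhmt, which remethylates homocysteine with betaine, was read at 17.97 ± 1.93.

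Olfactory receptors and beta-defensins each gave 3 of the 36. Olfr1507 was read at 16.6 ± 0.674 RPM, Olfr570 at 15.1 ± 1.06 and Olfr574 at 5.84 ± 0.642. Olfr570 and Olfr574 lie on the same strand of chromosome 7, starting at 102894577 and 102948467 in GRCm38. Defb11, Defb9 and Defb15, secreted antimicrobial peptides, lie close together on chromosome 8, and Defb11 was the highest of them at 37.9 ± 2.84. Both families hold near-identical copies, so how reads were split between their members is uncertain. Also among the 15 highest were 4933429O19Rik, Frmpd1os, 2610318M16Rik and Ldc1, with means of 29.4, 12.9, 7.25 and 9.26 RPM. Tsix, the antisense partner of Xist, also met the rule at 2.76 ± 0.747, and 32.6% of its exon bases overlap Xist, which was read at 2.02 ± 0.702 in choroid plexus and 0.136 ± 0.21 in hypothalamus.

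Ins2, one of the 2 mouse insulin genes and the gene overexpressed elsewhere in the series, was the only restricted choroid plexus gene in any of the lists used here. Its level was 13.1, 13.1, 15.5, 13.6 and 16.8 RPM in choroid plexus controls 1 to 5, from 2132 reads in all. No Ins2 read fell in any hypothalamus control, so the choroid plexus mean of 14.4 ± 1.64 was at least 131-fold above the floor of 3 reads per library. Ins1, the other insulin gene, had 0 reads in all 10 libraries, and 0 reads allow at most the 3 reads of the floor. In GRCm38 the annotated Ins2 gene spans chr7:142678656-142743381 on the minus strand and Igf2 spans chr7:142650766-142666816 on the same strand, downstream of it. Igf2 was the far more heavily read of the pair in choroid plexus, with 718857 reads over the 5 libraries.

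Promoters of restricted genes were searched for TAATCC, the core site bound by OTX homeodomain proteins, on either strand (GGATTA on the other) in the 250 bases before each annotated start. RefSeq entries for GRCm38.p6 were found for 18651 of the 25239 genes, and 6.89% of those held the site. Among the genes restricted to choroid plexus, 3 of 26 with a promoter entry held it (11.5%), and among those restricted to hypothalamus 21 of 250 did (8.4%). The share was 6.75% of the 889 genes called at least 4-fold higher in choroid plexus and 5.81% of the 2340 higher in hypothalamus. No test was made of these shares. The 3 choroid plexus promoters are shown 5′ to 3′ on the gene's strand with the site in capitals, followed by those of the 2 highest genes restricted to hypothalamus, which hold no TAATCC in these bases. They cover chr4:130222296-130222545 for Ldc1 (minus strand), chr7:102948217-102948466 for Olfr574 (plus), chr8:12719128-12719377 for Gm15348 (minus), chr10:88090822-88091071 for Pmch (plus) and chr9:39603653-39603902 for AW551984 (minus). The Ldc1 promoter holds 3 sites, the first starting 250 bases before the start.
Ldc1: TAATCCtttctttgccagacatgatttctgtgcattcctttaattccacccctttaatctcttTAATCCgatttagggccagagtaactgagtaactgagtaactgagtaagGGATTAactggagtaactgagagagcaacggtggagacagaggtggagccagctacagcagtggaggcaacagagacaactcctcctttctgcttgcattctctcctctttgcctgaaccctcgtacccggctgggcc
Olfr574: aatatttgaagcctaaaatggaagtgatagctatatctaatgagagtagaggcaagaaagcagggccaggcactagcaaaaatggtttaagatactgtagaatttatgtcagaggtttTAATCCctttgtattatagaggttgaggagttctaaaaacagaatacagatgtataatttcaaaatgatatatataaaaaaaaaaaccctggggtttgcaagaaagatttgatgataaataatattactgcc
Gm15348: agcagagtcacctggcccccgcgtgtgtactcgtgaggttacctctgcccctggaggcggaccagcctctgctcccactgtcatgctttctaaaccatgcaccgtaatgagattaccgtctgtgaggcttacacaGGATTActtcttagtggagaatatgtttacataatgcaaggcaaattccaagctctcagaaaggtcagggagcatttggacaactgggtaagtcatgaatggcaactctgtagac
Pmch: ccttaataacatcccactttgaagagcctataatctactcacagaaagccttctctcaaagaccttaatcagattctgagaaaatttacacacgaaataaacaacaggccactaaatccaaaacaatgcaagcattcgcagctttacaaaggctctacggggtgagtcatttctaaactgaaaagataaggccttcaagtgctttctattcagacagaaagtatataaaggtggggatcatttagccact
AW551984: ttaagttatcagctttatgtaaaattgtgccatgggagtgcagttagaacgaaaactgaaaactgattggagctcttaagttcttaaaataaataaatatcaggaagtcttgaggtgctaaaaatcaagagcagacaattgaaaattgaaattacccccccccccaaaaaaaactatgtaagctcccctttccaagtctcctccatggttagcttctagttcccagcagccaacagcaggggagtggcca

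Of the 337 genes restricted to hypothalamus, 158 had no read in any choroid plexus library and 46 belonged to lists used here, among them 12 transcription factors. Pmch, the precursor of melanin-concentrating hormone, was the highest by reads, at 315, 241, 259, 374 and 276 RPM in hypothalamus controls 1, 2, 3, 4 and 6. It had no read in choroid plexus, which puts it at least 2697-fold above the floor, although 58.1% of its exon bases overlap the antisense gene Parpbp. Hcrt, the orexin precursor of wake-promoting neurons, was read at 259, 253, 217, 278 and 269 in hypothalamus and gave 1 read in choroid plexus. AW551984, a gene without an established name, stood at 263 ± 11.1, and Magel2, an imprinted gene of the Prader-Willi region, at 172 ± 17.5. Trh, the thyrotropin-releasing hormone precursor, stood at 90.7 ± 9.96, at least 836-fold above the floor. Gpr101 (an orphan receptor) was read at 89.1 ± 2.88 and Mir124a-1hg (the host transcript of a neuronal microRNA) at 105 ± 6.26. Ralyl, Olfm3, Pcdh8, Ccdc184, Cntnap4, Nxph4 and Fstl5 were also among the 15 highest.

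Neuropeptide genes were nearly all higher in hypothalamus. Of 36 listed, 33 were tested, 32 were higher in hypothalamus (28 of them at least 4-fold) and 1 in choroid plexus, with a median log2 difference of -5.52. These 33 calls were the same under the 4 scalings. Summed over the list, choroid plexus controls 1, 3, 4 and 5 gave 37.6 to 40.7 RPM, choroid plexus control 2 gave 62.1, and the hypothalamus libraries 2484 to 2808. The exception was Nucb2, the precursor of nesfatin, which is expressed in many tissues, at 33.4 ± 0.728 against 28.1 ± 4.28 and a fold of 1.19 (interval 1.04 to 1.37). Over the 8 libraries numbered 1 to 4 it was not called (log2 difference 0.18, limma adjusted p = 0.079). Vgf, a granin-like precursor, stood at 471 ± 59.8 in hypothalamus and 0.318 ± 0.15 in choroid plexus.

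Avp and Oxt encode the precursors of vasopressin and oxytocin, which magnocellular neurons release from the posterior pituitary. Avp was read at 300.1, 253, 375, 231 and 419 RPM in hypothalamus controls 1, 2, 3, 4 and 6, and Oxt at 140.0, 126, 229, 113 and 211. Controls 3 and 6 were the highest in both and control 4 the lowest in both. Without choroid plexus control 2, Avp was at most 0.144 and Oxt at most 0.36 in choroid plexus. The arcuate genes that govern feeding were lower than these by reads. Pomc, the melanocortin precursor of satiety neurons, stood at 82.6 ± 10.2, Cartpt at 120 ± 18.7, Npy at 25.4 ± 5.04 and Agrp at 10.03 ± 2.67. In choroid plexus Agrp was at 0.73 ± 0.13, and the other 3 arcuate genes were at most 0.324 in any library. Sst (somatostatin, 178 ± 19.1) and Adcyap1 (PACAP, 146 ± 11.6) were also far above choroid plexus, each 272-fold.

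Secreted factors ran the other way. Of 33 genes listed as products of the plexus, 29 were tested, 22 were higher in choroid plexus (18 at least 4-fold) and 6 in hypothalamus, with a median log2 difference of 3.61. Igfbp2, a binding protein for insulin-like growth factors, stood at 2397 ± 69.9 against 6.3 ± 2.55 RPM, a 369-fold difference. Sostdc1, an antagonist of BMP and WNT ligands, stood at 759 ± 30 against 1.92 ± 0.519, and Bmp6, a bone morphogenetic protein, at 384 ± 4.55 against 4.39 ± 1. Gdf15, a stress hormone, was low but 12.2-fold higher in choroid plexus, at 6.3 ± 1.84 against 0.0444 ± 0.0502. The 6 genes higher in hypothalamus were Shh, Fgf1, Wnt5a, Rbp4, Igf1 and Mif. Shh, a patterning ligand, had no read in choroid plexus and 16.6 ± 1.38 RPM in hypothalamus, with 28.3% of its exon bases under antisense genes. Fgf1 stood at 121 ± 7.98 against 5.77 ± 2.47. The calls for Igf1 and Mif did not hold under all scalings. Igf1 had a log2 difference of -0.22 (not called) with TMM factors, and Mif turned from -0.24 to 0.22.

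**Figure D4:**
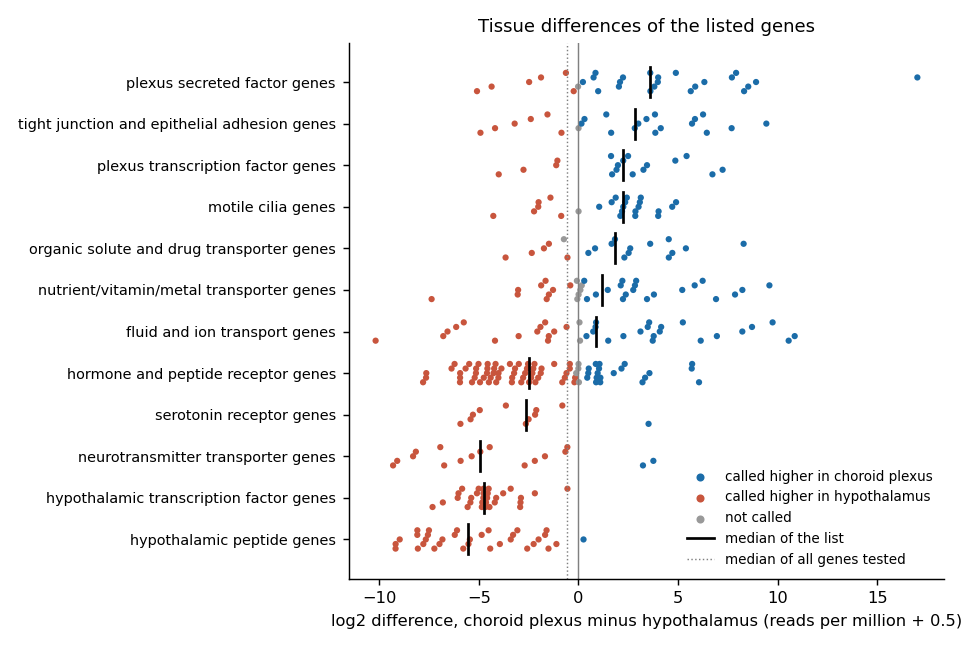
Fitted log2 difference (choroid plexus minus hypothalamus, RPM plus 0.5) of every tested gene in 12 lists, coloured by call, with a black bar at each list's median and a dotted line at the median of all genes tested, -0.56. Peptide, serotonin receptor and transmitter transporter genes lie mostly to the left, with medians of -5.52, -2.64 and -4.93, and secreted factor and junction genes mostly to the right, with medians of 3.61 and 2.83.

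Receptors divided by class. Of 88 hormone and peptide receptor genes, 81 were tested, with 20 higher in choroid plexus and 57 in hypothalamus (50 under all 4 scalings). Among receptors for insulin and growth factors, 7 of 9 tested were higher in choroid plexus, and among cytokine-type receptors 4 of 5 were. Among receptors for hypothalamic peptides, 27 of 31 were higher in hypothalamus, 25 of them at least 4-fold.

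Prlr, the prolactin receptor, was the most heavily read receptor of the list in choroid plexus. Its level was 1290, 1448, 1397, 1326 and 1579 RPM in choroid plexus controls 1 to 5 and 25.1 to 28.5 in hypothalamus, a 51.5-fold difference (interval 47.1 to 56.4). Lepr, the leptin receptor, was read at 165, 176, 194, 192 and 192 in choroid plexus and at 2.84 to 3.17 in hypothalamus, where leptin acts on feeding neurons. That is 52.3-fold (interval 47.2 to 58.1), and the groups lie far apart. Isoforms of Lepr were not resolved in these gene-level values. Npr3, the clearance receptor for natriuretic peptides, had the largest called difference on the choroid plexus side, 66.5-fold, at 273 ± 10.8 against 3.68 ± 0.81. Crhr2, the urocortin receptor, stood at 100.1 ± 6.91 against 9.44 ± 1.41, or 10.2-fold, while its relative Crhr1 was restricted to hypothalamus.

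Insulin and growth factor receptors were present in both tissues. Insr, the insulin receptor, was read at 124, 125, 141, 120 and 116 RPM in choroid plexus and at 69.1, 60.5, 56.4, 55.9 and 57.5 in hypothalamus, a 2.08-fold difference (interval 1.88 to 2.30). Igf1r was 4.47-fold higher in choroid plexus, at 281 ± 9.3 against 62.5 ± 3.46, and Igf2r 9.29-fold, at 333 ± 19.8 against 35.5 ± 4.2. The receptor tyrosine kinase Ret was the opposite, at 47.6 ± 12.2 in hypothalamus and 0.072 ± 0.0899 in choroid plexus. Irs1, an insulin receptor substrate, was 2.22-fold higher in choroid plexus with 30.9% of its exon bases under the antisense gene Gm9747. Irs2 was 1.27-fold higher in hypothalamus with totals, a call that did not hold under all 4 scalings.

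Mc4r, the melanocortin receptor, had no read in choroid plexus and 4.21 ± 0.547 RPM in hypothalamus. Ghsr, the ghrelin receptor, had none and 8.35 ± 1.6, and Calcr, the calcitonin receptor, had none and 36.8 ± 2.01, at least 339-fold above the floor. Glp1r gave 1 read in choroid plexus and 2.37 ± 0.611 RPM in hypothalamus. Mc3r was in both, at 7.17 ± 1.68 and 11.6 ± 1.26, and its call was lost with TMM factors. Thra, a thyroid hormone receptor, stood at 546 ± 32.2 in hypothalamus and 85.2 ± 6.03 in choroid plexus. Adcyap1r1, the PACAP receptor, stood at 404 ± 27.2 against 2.56 ± 3.39, with 8.4 in choroid plexus control 2. Ntsr2, a neurotensin receptor of astrocytes, had the largest called difference on the hypothalamus side, 223-fold.

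Of 14 serotonin receptor genes, 11 were tested, and 10 were higher in hypothalamus. The exception was Htr2c, the receptor that choroid plexus epithelium is known for. It was read at 1210, 1356, 1335, 1259 and 1253 RPM in choroid plexus and at 118, 112, 101, 112 and 113 in hypothalamus, an 11.5-fold difference (interval 10.7 to 12.4). Its near relative Htr2a had no read in choroid plexus and 5.8 ± 0.927 RPM in hypothalamus. Htr1a, Htr1b and Htr2a were at 0 in all choroid plexus libraries, as were Htr1f, Htr4 and Htr6. Htr7 had the highest level of the rest in hypothalamus, at 31.1 ± 1.74.

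Transporters that make cerebrospinal fluid were higher in choroid plexus for the most part. Of 38 fluid and ion transport genes, 37 were tested, 21 were higher in choroid plexus (16 at least 4-fold) and 14 in hypothalamus, with a median log2 difference of 0.86. Slc4a5, a sodium bicarbonate cotransporter, had the largest difference. It was read at 1155, 1129, 1169, 1184 and 1169 RPM in choroid plexus and at 0, 0.259, 0.0836, 0 and 0.365 in hypothalamus. Kcnj13, a potassium channel of the apical membrane, stood at 969 ± 103 against 0.161 ± 0.186, and the water channel Aqp1 at 960 ± 29.3 against 0.656 ± 0.338. Car12, a carbonic anhydrase, was 300.0-fold higher, and Clic6 70.5-fold. Trpv4, a channel gated by osmotic swelling, was 124-fold higher. Slc4a2, the anion exchanger AE2, was 37.9-fold higher, with 14.9% of its exon bases under Fastk, and Slc4a10, a sodium-dependent bicarbonate exchanger, 11.2-fold.

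Atp1b1, a beta subunit of the sodium pump, stood at 1497 ± 64.1 against 1441 ± 31.5. It did not pass the test with totals and was called higher in choroid plexus with TMM factors, at a log2 difference of 0.51. Fxyd1, a small membrane protein that regulates ion transport, was 13.3-fold higher in choroid plexus. The chloride cotransporters were divided by member. Slc12a2, which brings chloride in, was 17.0-fold higher in choroid plexus and Slc12a5, which carries it out of neurons, 95.2-fold higher in hypothalamus. Slc12a2 was read at 1682 ± 59.4 against 98.8 ± 5.73 RPM and Slc12a5 at 8.03 ± 1.06 against 811 ± 101.

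Ratios within a library do not depend on how its total is scaled. For this reason 24 pairs of related genes were compared as the log2 ratio of their reads, with 1 read added to each. Where a member had 0 or few reads, the ratio was set by the added read and rose or fell with the depth of the library. In choroid plexus this was so for Htr2c over Htr2a, since Htr2a had 0 reads there. It also touched Crhr2 over Crhr1 and Lmx1a over Lmx1b, with at most 2 Crhr1 and 6 Lmx1b reads in a library. Tubb3, in Tubb4b over Tubb3, fell to 0 in choroid plexus as well. On the hypothalamus side Slc4a5, in Slc4a5 over Slc4a4, averaged 0.142 RPM. These are examples and not all such pairs. The ratio differed between the tissues in all 24 pairs. It was higher in choroid plexus in 22 and lower in 2, and the exact two-sided permutation p was 0.00794 for each pair, the smallest that 252 splits allow, and also after Benjamini-Hochberg adjustment over the 24. The pairs were chosen with the tissues' levels known, so these p-values are no independent support for the differences. Nor does the number of pairs say how common such a turn is. The split of 22 and 2 depends on which gene was written first in each pair. Per length of exon, the leading member of the pair differed between tissues in 17 of the 24.

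For Slc12a2 over Slc12a5 the ratio was 7.71 ± 0.17 against -3.03 ± 0.18, a difference of 10.74. Kcnj13 over Kcnj10, an epithelial and a glial potassium channel, showed the largest turn, from 8.52 ± 1.54 to -11.71 ± 1.83. Kcnj13 averaged 0.161 RPM in hypothalamus, so the size and rank of this turn rest in part on the added read and on depth. Aqp1 over Aqp4, the epithelial and the astrocyte water channel, went from 7.34 ± 1.40 to -7.59 ± 0.62, with the lowest choroid plexus ratio, 5.06, in control 2. The 2 pairs with a lower ratio in choroid plexus would have a higher one there with their genes written in the other order. Insr over Igf1r was -1.17 ± 0.08 in choroid plexus and -0.06 ± 0.13 in hypothalamus, and Irs2 over Irs1 was 0.74 ± 0.14 and 2.26 ± 0.28. Per length, Igf1r led Insr 1.84-fold in choroid plexus and Insr led Igf1r 1.17-fold in hypothalamus. Prlr over Ghr, the receptors of prolactin and growth hormone, was 4.47 ± 0.15 against -0.35 ± 0.09.

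**Figure D5:**
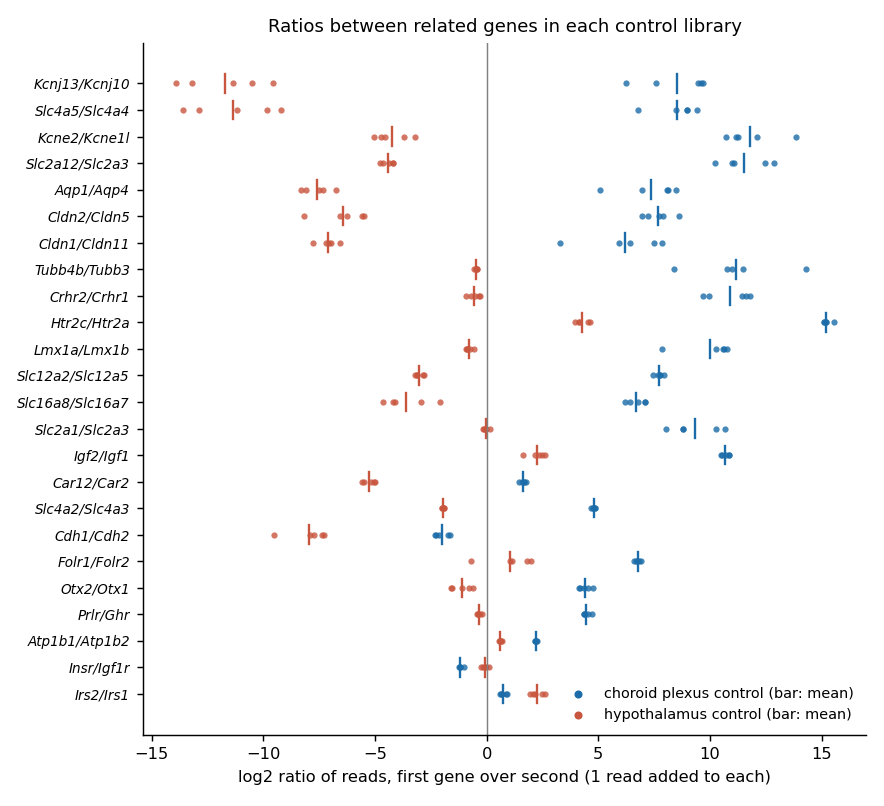
Log2 ratio of reads of the first gene over the second (1 read added to each) for 24 pairs in every control library, with a bar at each tissue's mean and pairs ordered by their difference. Choroid plexus points lie to the right of the hypothalamus points in 22 pairs and to the left in Insr over Igf1r and Irs2 over Irs1 at the bottom.

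Carriers of organic solutes and vitamins followed the plexus pattern, and carriers of metals and amino acids were divided. Of 19 organic solute and drug transporters tested, 13 were higher in choroid plexus and 5 in hypothalamus, with a median log2 difference of 1.84. Of 34 nutrient, vitamin and metal transporters, 20 and 9 were, with a median of 1.18. In the same order, vitamin carriers gave 6 and 1 of 8, and sugar and acid carriers 7 and 2 of 10. Metal carriers gave 4 and 3 of 8, and amino acid carriers 3 and 3 of 8. Slco1c1, which carries thyroid hormone, was 23.2-fold higher in choroid plexus, at 929 ± 66.6 against 39.5 ± 1.12. Abca4, a retinoid flippase, was 314-fold higher. Slc29a4, a monoamine transporter, was 23.2-fold higher. Among drug pumps Abcc4 and Abcc1 were 12.2-fold and 5.74-fold higher in choroid plexus, whereas Abcb1a, the P-glycoprotein of brain capillaries, was 12.6-fold higher in hypothalamus. Slc22a8, an organic anion transporter, was 6.07-fold higher in choroid plexus. Its relative Slc22a6 was at 0 in 3 choroid plexus libraries and at 2.15 in control 2, and was not called. Without control 2 its log2 difference went from -0.73 to -1.17 and it was called higher in hypothalamus, as it was with array weights over all libraries (-0.95, limma adjusted p = 0.030).

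Folr1, the folate receptor that passes folate into cerebrospinal fluid, was 770-fold higher in choroid plexus, at 861 ± 49.4 against 0.651 ± 0.313 RPM. Slc23a2, the vitamin C transporter, was 7.15-fold higher, the copper importer Slc31a1 37.1-fold, the zinc importer Slc39a4 75.4-fold and the sulfate transporter Slc13a4 300.5-fold. Slc38a3, a glutamine transporter, was 10.9-fold higher. Glucose transporters differed by member. Slc2a1, the barrier glucose transporter, stood at 164 ± 8.28 and 122 ± 11.6, only 1.35-fold apart (interval 1.23 to 1.48). Slc2a12 was 120.1-fold higher in choroid plexus, and Slc2a3, the neuronal transporter, 166-fold higher in hypothalamus, at 125 ± 6.76 against 0.281 ± 0.21. Slc16a8, a lactate transporter of epithelia, was 233-fold higher in choroid plexus.

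Neurotransmitter transporters were mostly higher in hypothalamus, with 15 of 17 tested called there (13 under all 4 scalings) and a median log2 difference of -4.93. Slc17a6, the vesicular glutamate transporter of the hypothalamus, was read at 301 ± 18.8 RPM against 0.0512 ± 0.0581, and Slc32a1, which loads GABA, at 219 ± 34.3 against 0.205 ± 0.17, with 24.9% of its exon bases under the antisense gene Gm14205. Slc6a11, a GABA transporter of astrocytes, had the largest difference, 633-fold, and Slc1a2, the glial glutamate transporter, stood at 1198 ± 55.9 against 12.9 ± 12.8, with 34.4 in choroid plexus control 2. The 2 exceptions were vesicular transporters. Slc17a8, the third vesicular glutamate transporter, was read at 44.9, 39.2, 53.3, 34.3 and 50.3 in choroid plexus and at 2.16 to 3.94 in hypothalamus, 13.6-fold apart (interval 10.7 to 17.2). Slc18a1, a vesicular monoamine transporter, was 9.45-fold higher in choroid plexus, at 10.8 ± 0.587 against 0.721 ± 0.293.

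Receptor and channel families were mostly on the hypothalamus side. Of 27 glutamate receptor subunits tested 26 were higher in hypothalamus (25 under all 4 scalings), and of 13 GABA-A receptor subunits 12 were. Of 68 potassium channel genes 58 were higher in hypothalamus (56 under all 4 scalings) and 9 in choroid plexus. Beside Kcnj13 and Kcne2, the choroid plexus channels included Kcnk1 at 352 ± 7.53 against 53.9 ± 3.73, Kcnh2 at 315 ± 15.9 against 112 ± 12.9 and Kcnh1 at 243 ± 40 against 28.9 ± 3.83. Solute carriers as a family were not tilted to choroid plexus: of 307 tested, 114 were higher there and 169 in hypothalamus (140 under all 4 scalings), with a median of -0.50 against -0.56 for all genes tested.

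Regional transcription factors separated the tissues. Of 30 hypothalamic transcription factors tested, all 30 were higher in hypothalamus with totals, 29 of them under all 4 scalings and at least 4-fold, with a median log2 difference of -4.72. Nkx2-1, needed for the ventral hypothalamus, stood at 62.9 ± 4.96 against 0.0713 ± 0.101, and Otp, a factor of neuroendocrine neurons, at 86.1 ± 12.9 against 0.0401 ± 0.0897. Six3 was the exception to the size and to the scaling. It was read at 41.3, 41.2, 40.1, 42.8 and 43.8 in choroid plexus and at 66.1, 59.3, 70.2, 51 and 62.8 in hypothalamus, and with TMM factors its log2 difference of -0.10 was not called. Of 17 plexus factors tested, 13 were higher in choroid plexus and 4, Foxp2, Meis1, Klf4 and Nr4a1, in hypothalamus. Otx2, the homeodomain factor of plexus epithelium, was 151-fold higher in choroid plexus at 402 ± 32.7, Msx1 106-fold at 160 ± 9.77, and Lmx1a, a roof plate factor, 6.61-fold at 51.7 ± 5.37. Foxj1 and Gmnc, which drive the making of motile cilia, were 9.61-fold and 43.1-fold higher. None of the 39 Hox genes reached the level for testing, and 35 of them had no read in any choroid plexus library and 29 none in any hypothalamus library.

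Of 23 tight junction and adhesion genes, 16 were higher in choroid plexus (12 at least 4-fold) and 6 in hypothalamus, with a median log2 difference of 2.83. Cldn2 and Cldn1, claudins of the plexus barrier, were 692-fold and 207-fold higher in choroid plexus, at 615 ± 31.3 and 340 ± 18.2. The epithelial keratin Krt18 was 57.8-fold higher. Cldn11, a claudin of myelin, was 30.2-fold higher in hypothalamus, and N-cadherin, Cdh2, 5.25-fold. Of 24 motile cilia genes, 17 were higher in choroid plexus and 6 in hypothalamus, with a median of 2.22. Dnah6, an axonemal dynein, stood at 199.5 ± 21.2 against 6.23 ± 1.01. Against the run of the list, Dnah5 was higher in hypothalamus at 5.11 ± 1.11, and Tppp3, a tubulin-binding protein, 19.3-fold at 143 ± 14.3. The axonemal dyneins as a family were divided: of 17 tested, 7 were higher in choroid plexus and 6 in hypothalamus, with a median log2 difference of 0.03.

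Of 43 collagen genes tested, 15 were higher in choroid plexus and 26 in hypothalamus, near the shares of all genes tested (28.4% and 59.7%). Those with the largest difference in choroid plexus were Col8a1 at 680 ± 27.7 against 5.12 ± 0.785, Col8a2 at 601 ± 22.5 against 4.64 ± 0.395 and Col9a3 at 1461 ± 150 against 19.4 ± 2.39. Nuclear-encoded subunits of oxidative phosphorylation leaned to choroid plexus, with 50 of 82 tested higher there under all 4 scalings and 16 in hypothalamus with totals (7 under all), and a median log2 difference of 0.41. Beside Cox8b, Cox6b2 and Cox7a1 were at least 4-fold higher, at 55.7 against 2.81 and 11.3 against 1.19 RPM. Cytosolic ribosomal protein genes leaned to hypothalamus, with 65 of 80 tested higher there with totals, 45 under all 4 scalings, and 2, Rpl41 and Rps27l, higher in choroid plexus. Of all genes tested, 59.7% were higher in hypothalamus with totals and 46.4% under all 4 scalings. The family's median log2 difference was -0.80 against -0.56 for all genes tested, and 1 member was at least 4-fold higher in hypothalamus. Cytosolic ribosomal protein genes have many near-identical pseudogenes, so their counts are uncertain. Of 16 genes commonly used as references, 9 were higher in hypothalamus with totals and 4 of those under all scalings. Another 5 were higher in choroid plexus, and all 5 kept that call under all scalings. This split was near the shares of all genes tested (59.7% and 28.4%). Actb fell on the hypothalamus side at 875 against 504 RPM, Pgk1 on the choroid plexus side at 646 against 391, and Rplp0, at 218 and 222, was not called with totals and had a log2 difference of 0.43 with TMM factors.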

How the data were processed

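Bulk RNA sequencing was used, with poly(A) selection and strand-marked libraries, per the labels' protocols. HISAT2, featureCounts, DESeq2 and the build GRCm38 are named per the submitters' processing notes, and their versions, the annotation and the strand setting are not given in sources used here. The deposited signal values are gene counts that the authors divided by DESeq2 size factors, with 1 table per tissue. Each control column is built from a single step size, from which reads were recovered as whole numbers (tolerance 0.02) for 100% of values. No column of per-sample values was left without a sample. The count tests, edgeR and DESeq2, were run on these reads as alternatives.

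Reads were scaled to each library's total, log2 of the level plus 0.5 was fitted with limma 3.58.1 (R 4.3.3, lmFit and eBayes with a trend, Benjamini-Hochberg), and the script was tested on simulated data. Alternatives used edgeR 4.0.16 and DESeq2 1.42.0, other scalings, pseudocounts and filters, and left out each library. Exon lengths and antisense overlap came from GENCODE vM21, and 24708 of 25239 symbols matched. Results on some genes are not reported here. Genes otherwise named were the 10 highest by share and 15 highest restricted per tissue, the highest and most different members of each list, the pairs, and the 8 nearest to equality. Gdf15, Plvap, Dnah5, Tsix, Xist and some other list members fall outside that rule and were chosen after their values were seen. The comparison, its members and the lists were chosen with earlier results of these data known. A count of 0 allows up to 3 reads per library, which covers counting error only. Deviations from the tissue mean correlated at -0.019 to 0.084 between same-numbered libraries of the tissues, so the numbers were not taken as pairs. The 0.084, between the libraries numbered 2, was the highest of all such correlations. Hypothalamus control 6 has the number 6 in its title and 5 in its column name. It was not matched to choroid plexus control 5, with which its correlation was 0.009.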

Additional observations from a re-analysis of the deposited data

Results flagged for a closer look

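In 388 groups of 5 libraries examined, 19 held 1 library whose gap to the nearest of the others was more than the 95% limit of Dixon's test. Chance gives about 1 in 20 groups, and the share found here was near that. Choroid plexus control 2 gave 3 of the 19. These were 838 RPM for Mbp (51.4 to 61.3 in the others), 19.2 for Avp (0 to 0.144) and a log2 ratio of 15.53 for Htr2c over Htr2a (15.08 to 15.20). Htr2a had 0 reads in choroid plexus, so that ratio followed the number of Htr2c reads, and control 2 was the deepest choroid plexus library at 34.9 M. In RPM, Htr2c stood at 1356 in control 2 and at most 1335 in the others. The 19 do not hold every departure of choroid plexus control 2. Gfap at 150 RPM (3.002 to 15.3 in the others), Cldn11 at 32.4 (1.41 to 5.59) and Oxt at 2.29 (0 to 0.36) are not among them. Its oligodendrocyte marker sum was 1841 RPM against 97.8 to 115. The share of groups near 1 in 20 therefore does not describe that library. Choroid plexus control 5 was low for Ttr at 107573 RPM (116968 to 120059 in the others), Clu at 3768 (4042 to 4078), Scd2 at 1364 (1664 to 1728), Ogn at 36.0 (45.3 to 49.2) and Igf1r at 265 (282 to 287), and high for Kcnh1 at 313 (216 to 234). Choroid plexus control 3 was high for Slc2a12 at 798 (734 to 752) and for Insr over Igf1r at -1.02 (-1.23 to -1.19). Control 1 was low for Lmx1a over Lmx1b at 7.85 (10.26 to 10.74), a ratio that rests on at most 6 Lmx1b reads in any choroid plexus library.

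Hypothalamus control 1 was low for Cga at 0.191 RPM (6.77 to 13.3 in the others), for Ccdc184 at 49.7 (60.6 to 62.8) and for Cdh1 over Cdh2 at -9.52 (-7.92 to -7.27). Hypothalamus control 4 was high for Ralyl at 118 (87.5 to 92.7) and low for Vgf at 367 (482 to 514), Ntsr2 at 199 (211 to 215) and Slc23a2 at 148 (164 to 170.3).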

How the results depend on the processing

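Counts of calls stayed within 1.5 times under every setting run. Restricted genes depended on the rule: 77 and 510 genes (choroid plexus and hypothalamus) at a minimum of 0.3 RPM, 14 and 145 at 5, 17 and 158 with 0 reads allowed in the other tissue, and 261 and 1539 with 30. Leaving out each library gave 4381 to 4464 genes higher in choroid plexus and 9261 to 9321 in hypothalamus, 1149 to 1170 and 3072 to 3132 at 4-fold, 36 to 50 and 342 to 492 restricted, all 24 pairs called each time, differences of -803.7 to -791.2 in the genes that hold 50% of reads, and of 18.4 to 18.7 percentage points in the share of the 10 highest. Without Ttr and Rn45s, with TMM factors and with DESeq2 size factors, the sign turned for Eef1a1 (0.00016, 0.25, 0.26), Sumo3 (0.20, 0.46, 0.46), Fndc3a (0.20, 0.46, 0.46), Eif3b (0.20, 0.45, 0.46), Hk1 (0.20, 0.45, 0.46) and Rplp0 (0.18, 0.43, 0.44), and with the last pair of scalings for Mif (0.22, 0.23) and Irs2 (0.11, 0.12). Same-numbered libraries of the tissues did not deviate together. With the replicate block over numbers 1 to 4, limma called 4345 and 9206 genes, against 4358 and 9237 in the same 8 libraries without it, a fit added after seeing the data. With the block, Nucb2 (0.18, adjusted p = 0.094) and Slc6a13 (-0.43, 0.059) lost their calls, as they did without it (0.079 and 0.073). With the replicate block, 0 paralog pairs were called, since 4 pairs of libraries allow no p below 0.125, and 24 of 24 kept 1 sign in all 4 differences. The alternative without mitochondrially encoded genes was not run, since the tables hold 0 such symbols. The cause of these changes was not tested.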
